A study of Mus musculus with 2 samples.

Results

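Genes of the macrophages that live in the fetal liver were examined in whole mouse liver, measured by total RNA sequencing. The set held 10 of the 43346 genes in the tables, chosen by symbol as genes of Kupffer cells and of the macrophages of erythroblastic islands: Vcam1, Cd5l, Marco, Csf1r, Adgre1, Clec4f, Mrc1, Timd4, Siglec1 and Cd163. Each matched 1 row in each gene table. Of the encoded proteins, 9 are surface receptors and that of Cd5l is secreted. The tissue was liver of B6NCrl embryos at embryonic day 15.5, described as healthy, and the labels name no treatment or mutation. The only group had 2 biological replicates. Replicate 1 pooled 78 embryos and replicate 2 pooled 62, with males and females mixed, so no value belongs to a single embryo and sexes cannot be told apart. From an input of 10 ng of RNA longer than 200 nt, replicates 1 and 2 gave 34039441 and 44200863 expected counts without spike-ins. Levels are given as TPM, a share of all transcripts corrected for transcript length, after the added spike-in RNAs were left out. The tissue label was checked against hepatocyte genes, of which Alb, the albumin gene, stood at 5827 and 4558 TPM and Afp at 11399 and 10353 TPM.

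Macrophages reach the liver early in development and settle there as Kupffer cells, the resident macrophages of the hepatic sinusoids. In the fetal liver, which is then a main site of red cell formation, macrophages also form the centre of erythroblastic islands. Maturing erythroblasts attach to the central macrophage, which takes up the nuclei that they expel and recycles iron. The genes described here encode the growth factor receptor on which macrophages depend, adhesion receptors for erythroblasts and receptors that bind dying cells, sugars or polyanions.

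All genes of the set except Cd163 stood at 1 TPM or more in both libraries, or 9 of the 10, against 53.1% of 21474 protein-coding genes and 28.4% of all genes. Summed over the set, the level was 304 and 267 TPM in replicates 1 and 2, or 286 ± 26.3 TPM (SD, n = 2). With the 4 adult globin genes left out of the total the mean of this sum was 464 TPM. Vcam1 and Cd5l alone held 56.0% and 54.8% of that sum. The order of the 10 genes by TPM was the same in both libraries. From the highest to the lowest gene the level differed 356-fold in replicate 1 and 445-fold in replicate 2. Genes next to each other in the order had separate values over the 2 libraries in 7 of 9 pairs. Over the 2 libraries the values of Vcam1 and Cd5l overlapped, as did those of Mrc1 and Timd4. Vcam1 was higher than Cd5l within each library, 1.11-fold by their means, and the counting intervals of the pair did not overlap in either library. Mrc1 was 1.00-fold and 1.05-fold the level of Timd4, with intervals that overlapped in both libraries. In whole tissue, fewer cells of a type and less RNA per cell cannot be told apart.

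**Figure D1:**
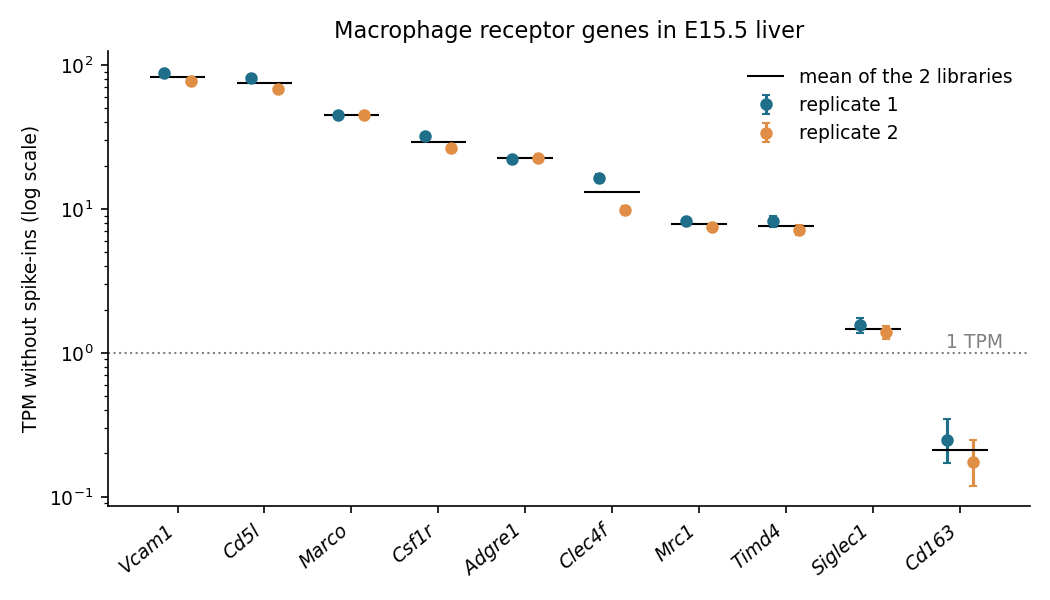
Level of each gene in TPM on a log axis, with 1 point per library, the exact 95% counting interval of each point and a line at the mean. Vcam1 and Cd5l lie highest at means of 83.3 and 75.2 TPM, Clec4f shows the widest gap between points among genes above 1 TPM, and Cd163 lies under the dotted line at 1 TPM.

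Csf1r (ENSMUSG00000024621; chromosome 18, 61100598 to 61132149, GRCm38, plus strand) encodes the tyrosine kinase receptor for growth factors that macrophages need to survive and differentiate. It had 31.9 and 26.6 TPM in replicates 1 and 2, or 29.3 ± 3.74 TPM (SD, n = 2), from 4432 and 4818 expected counts. This placed it above 86.0% of protein-coding genes. Of its ligand genes, Csf1 stood at 6.15 and 5.80 TPM, while Il34 had 1 and 8 expected counts and stayed under 1 TPM in both libraries. The receptor exceeded Csf1 by 4.89 ± 0.421-fold in TPM (SD, n = 2). Of the 8 listed genes for ligands and signalling of this receptor, 7 reached 1 TPM in both libraries. Tyrobp, an adaptor protein of myeloid receptors, led them at 141 ± 9.20 TPM, and the adaptor gene Grb2 followed at 51.6 ± 1.34 TPM. Inpp5d, a phosphatase gene of blood cells, differed most of them between the libraries on the log2 scale of TPM + 1, at 10.3 and 13.0 TPM, although the ratio of its scaled counts had an interval of 0.982 to 1.14, which included 1.

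Adhesion receptors included the highest gene and 1 of the lowest. Vcam1 (ENSMUSG00000027962; chromosome 3, 116109949 to 116129688, minus strand) encodes an immunoglobulin-like receptor that binds the integrin of alpha 4 and beta 1 chains on erythroblasts. It reached 88.5 and 78.1 TPM in replicates 1 and 2, or 83.3 ± 7.32 TPM (SD, n = 2), above 94.5% of protein-coding genes. Endothelial and mesenchymal cells can also make Vcam1, and whole liver does not show which cells held its RNA. An antisense gene, Gm43109, overlaps Vcam1 and was not analysed here. Adgre1 (ENSMUSG00000004730; chromosome 17, 57358691 to 57483527, plus strand), the gene of the F4/80 antigen that marks mouse macrophages, stood at 22.3 and 22.7 TPM. The exact 95% counting intervals overlapped, from 21.4 to 23.2 TPM and from 21.9 to 23.6 TPM. Siglec1 (ENSMUSG00000027322; chromosome 2, 131069220 to 131086765, minus strand), which encodes a receptor for sialic acid also called CD169, stood at 1.55 and 1.39 TPM from 299 and 344 expected counts. Siglec1 was thus the lowest gene of the set above 1 TPM, and Adgre1 exceeded it in both libraries.

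Itga4 and Itgb1, the integrin chains that bind VCAM1, stood at 27.3 ± 2.16 and 68.1 ± 0.504 TPM (SD, n = 2). Vcam1 exceeded Itga4 by 3.07-fold and 3.03-fold in replicates 1 and 2. In a list of 10 genes for adhesion partners in the island, which also held Epor, 9 reached 1 TPM in both libraries. Icam4, a red cell adhesion protein that binds integrins on macrophages, led at 163 ± 2.74 TPM. Epor, the erythropoietin receptor gene, which encodes a cytokine receptor and not an adhesion protein, stood at 115 ± 10.6 TPM. Itgb3, an integrin chain also found on platelets, differed most between libraries on the log2 scale of TPM + 1, at 13.9 and 11.5 TPM, and Efnb2 was lowest at 0.787 and 0.568 TPM. The 7 genes listed for disposal of heme and nuclei all reached 1 TPM and summed to 1372 and 1252 TPM. They included the biliverdin reductase gene Blvrb at 849 ± 51.9 TPM, the heme oxygenase gene Hmox1 at 145 ± 11.8 TPM and the iron exporter gene Slc40a1 at 141 ± 9.13 TPM. Dnase2a, the nuclease that digests engulfed nuclei, was lowest at 11.7 and 10.5 TPM. Which cells held the RNA of these 7 genes is not shown by whole liver.

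Genes of uptake spanned the widest range. Cd5l (ENSMUSG00000015854; chromosome 3, 87357881 to 87371073, plus strand) encodes a secreted scavenger protein of tissue macrophages that inhibits their apoptosis. It had 82.0 and 68.3 TPM in replicates 1 and 2, or 75.2 ± 9.67 TPM (SD, n = 2), from 4948 and 5558 expected counts. Marco (ENSMUSG00000026390; chromosome 1, 120474538 to 120505024, minus strand), a class A scavenger receptor with a collagen-like stalk, stood at 44.9 and 45.3 TPM. Its coefficient of variation over the 2 libraries, 0.580%, was the smallest of the 10 genes. Mrc1 (ENSMUSG00000026712; chromosome 2, 14229392 to 14332057, plus strand), the mannose receptor gene, had 8.23 and 7.51 TPM. Timd4 (ENSMUSG00000055546; chromosome 11, 46810800 to 46844332, plus strand), whose product binds phosphatidylserine on dying cells, had 8.20 and 7.13 TPM. Mrc1 and Timd4 could not be told apart in TPM, although the longer Mrc1 transcript gave 1316 and 1623 expected counts against 530 and 621 for Timd4.

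Cd163 (ENSMUSG00000008845; chromosome 6, 124304656 to 124330527, plus strand), the receptor that takes up haemoglobin bound to haptoglobin, was far below the others. It had 33 and 31 expected counts, or 0.249 and 0.175 TPM, in replicates 1 and 2. The exact 95% counting intervals ran from 0.171 to 0.349 TPM and from 0.119 to 0.249 TPM, so the 2 libraries overlapped and both lay under 1 TPM. Siglec1, the next gene in the order, was 6.95-fold higher by its mean. Of the 16 other scavenger receptor genes, 9 reached 1 TPM in both libraries, led by the lipoprotein receptor gene Scarb1 at 75.8 ± 7.11 TPM, Cd68 at 27.9 ± 2.04 TPM and the endothelial and macrophage gene Stab1 at 23.7 ± 3.77 TPM (SD, n = 2). Stab1 also differed most between the libraries on the log2 scale of TPM + 1, with 26.3 and 21.0 TPM, and the T cell gene Cd6 was lowest with 3 and 1 expected counts. In the list for uptake of cells that expose phosphatidylserine, 9 of 11 genes reached 1 TPM, led by the bridging protein gene Mfge8 at 79.8 ± 5.58 TPM and with Adgrb1 lowest at 1 and 4 expected counts.

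Clec4f (ENSMUSG00000014542; chromosome 6, 83644542 to 83656187, minus strand) encodes a C-type lectin that in mice marks Kupffer cells. It had 16.5 TPM in replicate 1 and 9.88 TPM in replicate 2, or 13.2 ± 4.70 TPM (SD, n = 2). The exact 95% counting intervals, 15.6 to 17.5 TPM and 9.22 to 10.6 TPM, did not overlap. Its coefficient of variation of 35.6% was the largest of the set. Among 8 other genes known from Kupffer cells, 7 reached 1 TPM, led by Slc40a1, by the lectin gene Clec1b at 23.7 ± 2.34 TPM and by Hpgd at 22.1 ± 1.17 TPM. The complement receptor gene Vsig4 differed most of them on the log2 scale of TPM + 1, at 3.16 and 2.13 TPM, and Cd207 was lowest at 0.849 and 0.784 TPM.

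Markers of several cell types stood beside the set. All 12 listed pan-macrophage genes reached 1 TPM in both libraries and summed to 678 and 613 TPM in replicates 1 and 2, led by Tyrobp, by C1qb at 113 ± 16.4 TPM and by Fcer1g at 108 ± 2.44 TPM, with Mpeg1 lowest at 1.72 ± 0.136 TPM (SD, n = 2). The receptor set equalled 0.442 ± 0.00949 of that sum. This is a ratio of chosen lists that share no gene, and not a proportion of macrophage RNA or of cells. Genes of other liver cell types, some of which share genes of the set, were also measured. The 9 sinusoidal endothelial genes summed to 103 and 92.9 TPM, led by Lyve1 at 21.7 ± 0.646 TPM, and the 7 stellate and mesenchymal genes to 159 and 154 TPM, led by Col1a1 at 71.6 ± 1.23 TPM. The 5 monocyte genes summed to 140 and 138 TPM and the 6 genes of the neutrophil lineage to 3942 and 4350 TPM. No marker of these lists had a count of 0 in both libraries. The part of each cell type in the levels of the 10 genes was not tested.

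**Figure D2:**
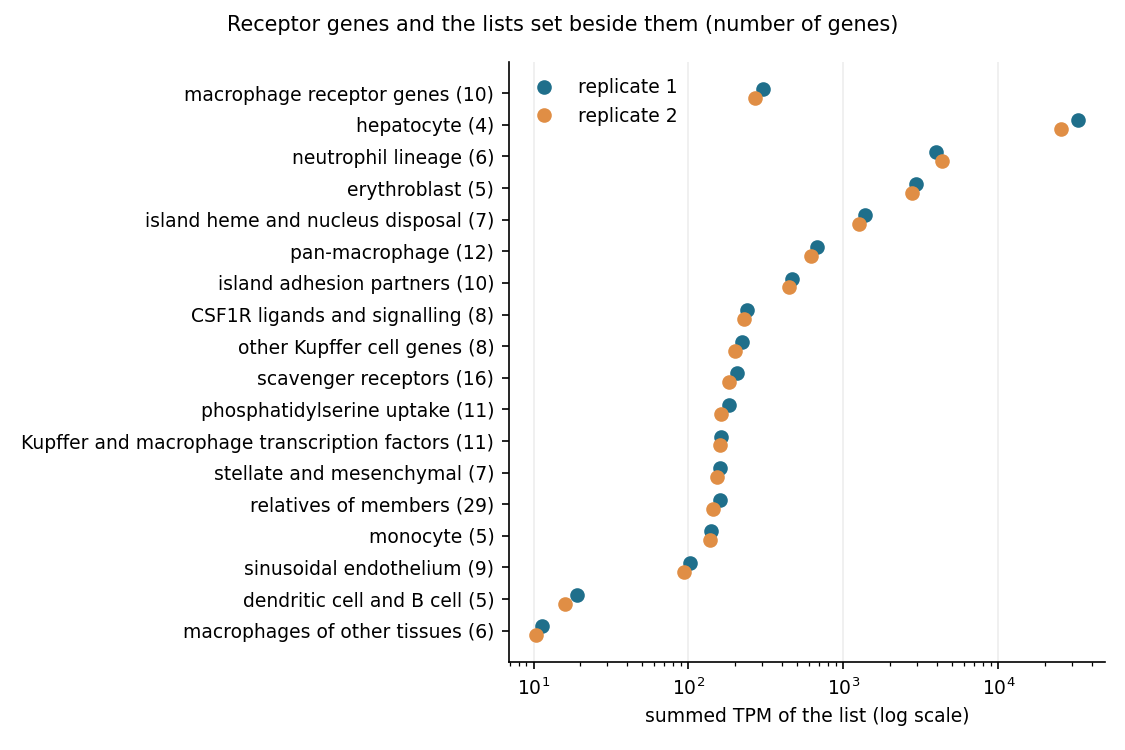
Summed TPM of the macrophage receptor genes, top row, and of the lists set beside them, on a log axis with 1 point per library and the number of genes in parentheses. The receptor genes, at 304 and 267 TPM, lie below the pan-macrophage list and above the endothelial, mesenchymal and monocyte lists.

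All 11 listed transcription factor genes of macrophages reached 1 TPM in both libraries. Id3, needed for Kupffer cells, led at 38.9 ± 0.834 TPM, followed by Spi1, the gene of the myeloid regulator PU.1, at 24.5 ± 0.660 TPM and the liver X receptor gene Nr1h3 at 19.2 ± 0.362 TPM (SD, n = 2). Spic, a relative of PU.1 needed by iron-recycling macrophages, stood at 11.5 ± 0.747 TPM. Maf was lowest at 1.90 and 2.14 TPM. PU.1 recognises sites with the core GAGGAA, so promoters of the set were searched for these letters and their reverse complement TTCCTC, over the 250 bases before the RefSeq start (GRCm38.p6). Results of this search are given for 6 of the 10 genes. Vcam1, Csf1r, Adgre1 and Siglec1 were left out, so the counts below say nothing about their promoters. The letters occurred in 3 of the 6, with 3 matches for Mrc1 and 1 each for Cd5l and Marco, and in 23.25% of 32851 such windows over all genes. None was found for Timd4, Clec4f or Cd163. A match is a description of the letters and not a site in use.

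Windows of 3 genes are shown, 5′ to 3′ on the strand of the gene with a match in capitals, for the highest gene with an entry (Cd5l), the gene that differed between the libraries (Clec4f) and the lowest gene (Cd163). The Cd5l window covers chr3:87357631-87357880 on the plus strand, with its match at position -66 from the start. The Clec4f window covers chr6:83656188-83656366 on the minus strand and stops at the outer GENCODE start, which lies 71 bases before that of RefSeq. The Cd163 window covers chr6:124304401-124304650 on the plus strand.
Cd5l: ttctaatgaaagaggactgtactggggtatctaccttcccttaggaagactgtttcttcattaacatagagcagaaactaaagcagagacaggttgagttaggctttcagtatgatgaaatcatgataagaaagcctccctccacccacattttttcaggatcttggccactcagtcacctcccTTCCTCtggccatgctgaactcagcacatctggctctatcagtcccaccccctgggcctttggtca
Clec4f: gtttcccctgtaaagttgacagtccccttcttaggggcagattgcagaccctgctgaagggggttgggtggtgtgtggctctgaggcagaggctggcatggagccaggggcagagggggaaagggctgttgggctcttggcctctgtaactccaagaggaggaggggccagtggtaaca
Cd163: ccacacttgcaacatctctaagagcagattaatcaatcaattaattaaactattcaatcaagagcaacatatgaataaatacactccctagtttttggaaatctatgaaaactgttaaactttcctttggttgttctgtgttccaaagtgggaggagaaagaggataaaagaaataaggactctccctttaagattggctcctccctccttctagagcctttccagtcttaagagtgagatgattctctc

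The 2 pools were compared as replicate 1 over replicate 2. With 1 library on each side no test of this difference exists, and the intervals cover counting error alone. The log2 ratio of TPM + 1 had a median of 0.18 over the 9 genes at a mean of 1 TPM or more, beside 0.05 over 12714 genes at that level. Of the 9 genes, 7 were higher in replicate 1, against 61.5% of all genes. With the libraries scaled by spike-in counts the medians were 0.033 over the 9 genes and -0.08 over all genes. Then 6 of the 9 were higher in replicate 1, against 31.7% of all genes. The interval of the ratio of scaled counts lay above 1 for Clec4f, Csf1r, Cd5l and Vcam1, against 21.7% of all genes, and below 1 for Adgre1, against 19.9%. In either direction these were 5 of the 9, against 41.6% of all genes. A difference was called where TPM + 1 differed by more than 1.5-fold and this interval did not include 1. By that rule 1 of the 10 genes was called, Clec4f, while 2.1% of 13066 genes at 1 TPM or more in either library were called, with 0.98% higher and 1.13% lower in replicate 1. None of the 145 genes in the lists set beside them was called.

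Clec4f gave 1137 expected counts in replicate 1 and 838 in replicate 2, although replicate 2 was the deeper library. Its level was 1.67-fold higher in replicate 1 by TPM and its scaled count 1.76-fold higher, with an interval of 1.61 to 1.93. On the log2 scale of TPM + 1 the ratio was 0.69, and 2.16% of the 12714 genes had a larger ratio in either direction. When the libraries were scaled by spike-in counts the ratio was 0.55 and Clec4f was no longer called. Timd4, another gene of embryo-derived Kupffer cells, differed 1.15-fold with an interval of 0.985 to 1.25 for its scaled count, so that the ratio of Clec4f to Timd4 was 2.01 in replicate 1 and 1.38 in replicate 2. Beside this, the 4 hepatocyte markers were all higher in replicate 1 and summed to 32477 and 25263 TPM, with Trf, the transferrin gene, at 15233 and 10337 TPM. Higher in replicate 1 were 9 of 12 pan-macrophage genes, all 9 sinusoidal endothelial genes, 6 of 11 macrophage transcription factor genes, 3 of 5 monocyte genes and 3 of 6 neutrophil genes, against 61.5% of all genes. Their part in the Clec4f difference was not tested.

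**Figure D3:**
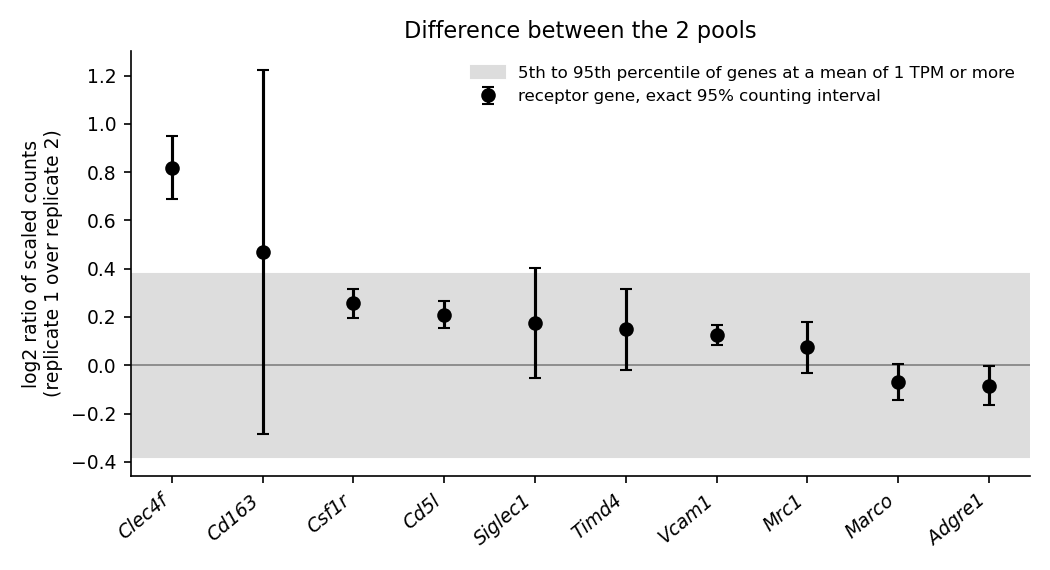
Log2 ratio of scaled expected counts, replicate 1 over replicate 2, for each receptor gene with its exact 95% counting interval; the grey band is the 5th to 95th percentile of genes at a mean of 1 TPM or more. The whole interval of Clec4f lies above the band, Cd163 has the widest interval, and Marco and Adgre1 lie just under 0.

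The transcript tables were a further readout of the same libraries. They held 18 transcripts of the 10 genes, with more than 1 for 7 genes. The leading transcript was the same in both libraries for the 6 of these at 1 TPM or more, against 90.4% of 8680 genes with several transcripts at that level in both libraries. It was also the same for Cd163, which lay below that level. The deposited TPM intervals of Cd163-201 and Cd163-202 overlapped in both libraries, however, so the leading form of Cd163 was not resolved. Adgre1-202 held 93.4% and 97.5% of Adgre1 TPM in replicates 1 and 2. The other form, Adgre1-201, has the same coding exons. Adgre1-202 keeps an intron of 87 nt after the coding part that Adgre1-201 lacks. Marco-201 held 97.9% ± 0.180 and Mrc1-201 95.9% ± 0.207 of their genes (SD, n = 2). For Vcam1, Cd5l and Timd4 a single transcript was quantified, so that other annotated forms of Vcam1 were not analysed here.

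Siglec1 was led by Siglec1-201, the full form with 21 coding exons, at 84.0% and 80.0% of the gene. Siglec1-203, which stops early and has 17 coding exons, held 16.0% and 12.6%, from 44.2 and 41.2 expected counts. For Clec4f, the coding form Clec4f-201 held 91.3% of the gene in replicate 1 and 81.1% in replicate 2. The noncoding Clec4f-202, which runs from a shortened first exon into a later exon of the coding form and skips those between, held 8.71% and 18.9%. By these values the difference between the pools lay in the coding form, at 15.1 and 8.02 TPM. The ratio of its scaled counts had an interval of 1.65 to 1.99. Clec4f-202 had 1.44 and 1.87 TPM from 22.7 and 39.7 expected counts, with an interval of 0.427 to 1.28 that included 1. These counting intervals do not cover how reads were shared between the 2 forms. The deposited TPM intervals, with spike-ins in the total, overlapped for Clec4f-202, at 0.00115 to 3.05 and 0.391 to 3.25 TPM. For Clec4f-201 they were apart, at 13.4 to 15.2 and 7.07 to 8.28 TPM. The change of 10.2 percentage points in the leading share was exceeded by 19.6% of the 8680 genes.

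The junctions that tell these forms apart are shown from GENCODE M21 transcripts, 5′ to 3′, with 15 bases before the junction in lower case and 15 after it in capitals. The Clec4f-201 run joins the first exon, to 83655957 on chromosome 6, to the second, from 83655174, and is coding. The Clec4f-202 run joins 83656068 to 83652487 and is noncoding. No exon base of this form is its own, so that only this junction tells it from Clec4f-201. The Siglec1 runs share their first 15 bases, to 131072592 on chromosome 2, and part where Siglec1-203 reads on into the intron.
Clec4f-201: ccctacagccccaagGACTGGGGCCTAAGT
Clec4f-202: gggcttgcaggacagAGATGCAGAGTTTGA
Siglec1-201: tgctccgtgtcctctATCCCCCCAAGACGC
Siglec1-203: tgctccgtgtcctctGTGAGTATGAACCCA

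**Figure D4:**
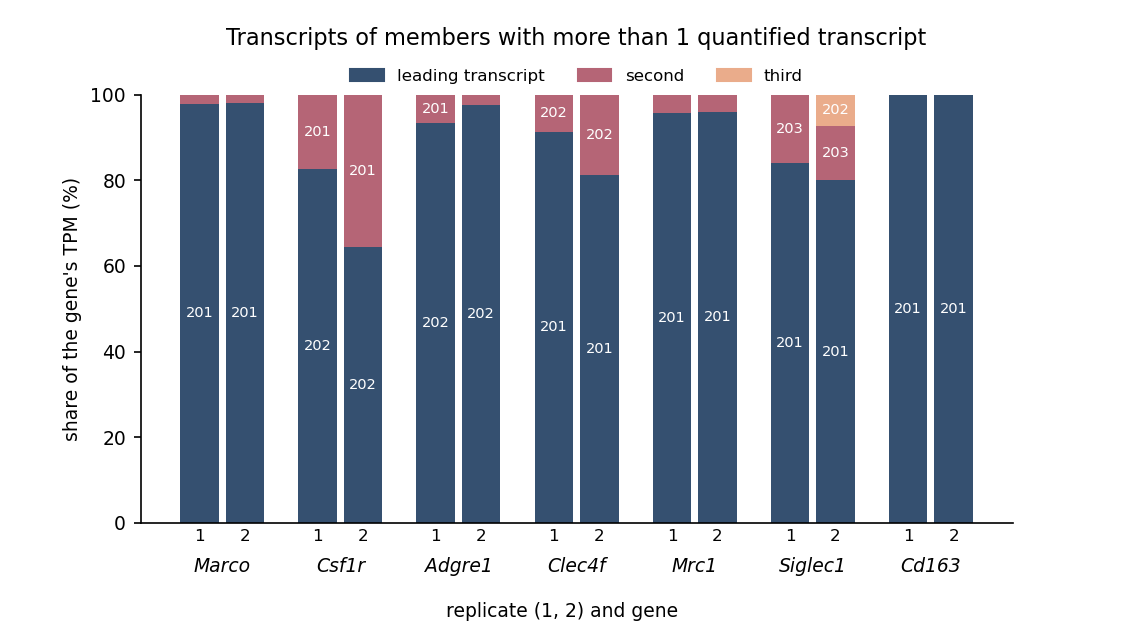
Share of each gene's TPM held by its quantified transcripts, in percent, as stacked bars for replicates 1 and 2; numbers in the bars are the ends of transcript names. The leading form is the same in both libraries for every gene shown, and its share differs most for Csf1r, at 82.6% and 64.4%, and for Clec4f.

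By TPM, Csf1r differed most of the set in the make-up of its transcripts. By posterior mean TPM the share of Cd163-201 differed more, at 79.2% and 55.6% in replicates 1 and 2, from 33 and 31 expected counts. That of Csf1r-202 was then 82.0% and 64.0%. Csf1r-202 held 82.6% of the gene in replicate 1 and 64.4% in replicate 2, or 26.4 and 17.2 TPM. Csf1r-201 held 17.4% and 35.6%, or 5.54 and 9.48 TPM, so by these values the 2 forms differed between the libraries in opposite directions. The deposited TPM intervals, with spike-ins in the total, overlapped for Csf1r-201, at 2.67 to 8.57 and 6.97 to 11.2 TPM. For Csf1r-202 they were apart, at 22.2 to 27.3 and 14.7 to 18.2 TPM. The shift of 18.2 percentage points was exceeded by 7.3% of the 8680 genes. Both forms have the same coding exons. Csf1r-202 ends 1015 nt beyond Csf1r-201, and 873 nt of this end lie on exons of Hmgxb3, a gene on the opposite strand at 4.17 and 3.40 TPM. The use of strand in counting is not given in the sources used here, and without strand reads of that stretch cannot be told apart. In replicates 1 and 2 the expected counts were fractional for both genes, at 4432.06 and 4818.02 for Csf1r and 650.94 and 712.98 for Hmgxb3. The part of that stretch in the share of Csf1r-202, and in the level of Csf1r as a gene, was not tested.

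**Figure D5:**
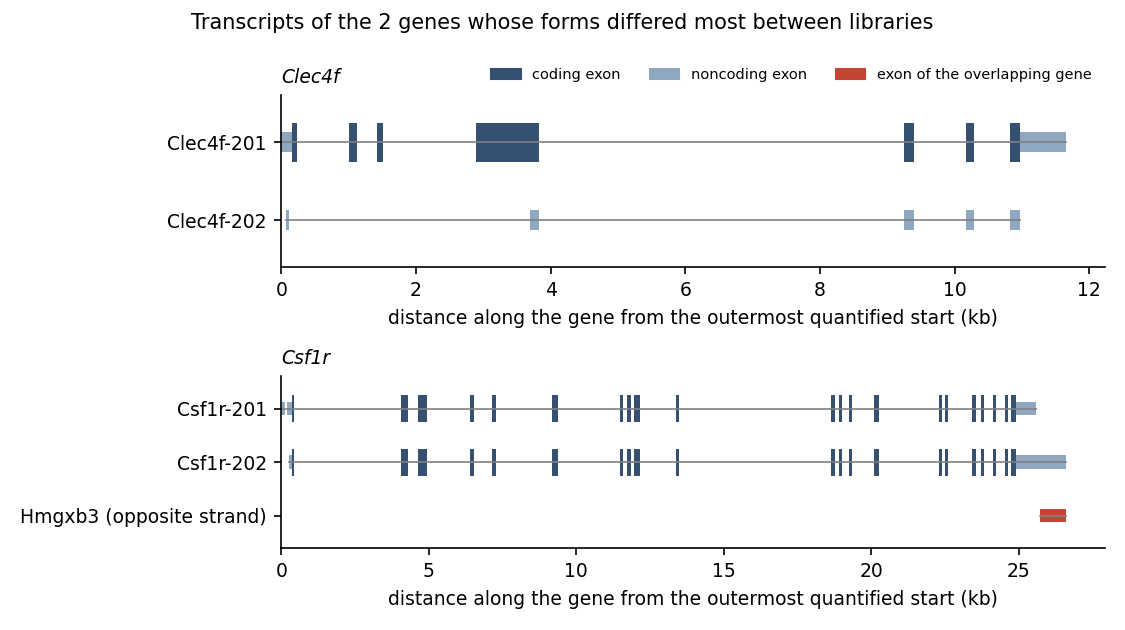
Exons of the quantified Clec4f and Csf1r transcripts by distance in kb from the outermost quantified start, with coding parts dark, noncoding parts light and the overlapping exons of Hmgxb3 in red. Clec4f-202 skips exons of Clec4f-201 near the start, and the longer end of Csf1r-202 lies over Hmgxb3.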

How the data were processed

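Whole liver of mouse embryos was measured by total RNA sequencing in 2 libraries of 1 group, grouped by the labels. Aligner, quantifier and strand setting were not given in the sources used here, which per the labels and the deposited companion descriptions name mm10 and annotation M4. Expected counts, as deposited, are estimates per gene or transcript with no scaling, and spike-ins are among them. TPM and its posterior mean, as deposited by the authors, are scaled by length and library total. The deposited transcript percent of each gene was set beside shares computed here from TPM.

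TPM was rescaled without 97 spike-in entries, which held 2.24% and 2.03% of counts. Entries with numeric identifiers (26248) were left out. GENCODE M21 (GRCm38), later than M4, named 42462 of 43346 genes. Expected counts were rounded for exact 95% intervals (Poisson for a level, Clopper-Pearson for a ratio scaled by library totals). Intervals cover counting error only, since PCR reads are not independent molecules. A pseudocount of 1 TPM, a detection limit of 1 TPM and a call at 1.5-fold were used. Alternatives were TMM (edgeR 4.0.16), median-of-ratios (DESeq2 1.42.0) and spike-in scaling, other limits and pseudocounts, posterior mean TPM and each library alone. The call rule was tested on simulated counts that held counting error alone, so that test does not cover variation between pools. Named were all 10 genes and, in each of 17 lists with 145 measured genes, the 3 highest, the lowest and the most different between libraries on the log2 scale of TPM + 1, with Csf1, Il34, Itga4 and Itgb1; not all are printed, and 1 is not reported here. Spic, Hmgxb3, Kit, Pdgfrb, Flt3, Mrc2, Havcr1 and Havcr2 fall outside that rule and were chosen after their values were seen. Lists overlap in part. Promoter sequences are from RefSeq (GRCm38.p6) and junctions from GENCODE M21. Genes and lists were chosen with earlier results of these data known. With 2 libraries of 1 group no genes could be named for a like pattern across samples. The alternative that gives the summed level without Clec4f was chosen after seeing the data. Software was R 4.3.3 for scaling, SciPy 1.17.1 for intervals, matplotlib 3.10.9 for figures, and pandas 2.3.3 with NumPy 2.4.6 under Python 3.11.15 for the rest.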

Additional observations from a re-analysis of the deposited data

How the results depend on the processing

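Of 105 values recomputed under alternatives that kept both libraries, 85 stayed within their spread (counts within 1.5 times) and 20 moved further. A change of sign was looked for only in the called gene, Clec4f, and was found in none of its 5 alternatives. Of the 48 values from 1 library alone, those set against an SD lie within the spread of 2 by construction and say nothing about stability. The others were counts. In either library alone 9 genes stood at 1 TPM or more, and all 10 kept their place in the order. Without the 4 adult globin genes in the total, the summed level was 464 TPM. By expected counts scaled to library totals, which are not per length, 6 of the 10 genes held the same place in the order. Spike-in scaling moved the median log2 ratio of all genes to -0.08, against 0.05 by TPM, and the median log2 ratio of the receptor genes to 0.033. Relative to all genes the receptor median was 0.11 under spike-in scaling and 0.13 by TPM. Under spike-in scaling 6 of 9 genes were higher in replicate 1, against 31.7% of all genes, with Mrc1 now lower, and 0 of the 10 were called. At a 2-fold limit 0 were called. Over 5 scalings, pseudocounts and measures the Clec4f log2 ratio ran from 0.55 to 0.74 and was called in 4. By posterior mean TPM, the leading transcript held 67.4% of Cd163 in place of 100%, with 79.2% in replicate 1 and 55.6% in replicate 2. The cause of these shifts was not tested. Cd163, with 33 and 31 expected counts, has the widest counting interval of the 10 genes relative to its level. No paired analysis was possible because there is 1 group.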

Other observations

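Relatives of the receptor genes were present unevenly. Of 29 listed, 17 reached 1 TPM in both libraries. Timd2, a member of the family of Timd4 whose product binds ferritin in mice, was the highest at 55.9 and 46.1 TPM and exceeded Timd4 by 6.64 ± 0.246-fold (SD, n = 2), while Havcr1 and Havcr2 of the same family stayed under 1 TPM. Clec4n, a lectin gene of myeloid cells, stood at 18.1 ± 0.197 TPM and Icam2 at 15.3 and 12.2 TPM. Clec7a, the gene of the fungal sugar receptor dectin-1, differed most on the log2 scale of TPM + 1, with 5.15 TPM in replicate 1 and 7.51 TPM in replicate 2. Cd209b had a count of 0 in both libraries, and Mrc2, a relative of Mrc1, had 0.715 and 0.599 TPM. Among receptor kinases of the class of Csf1r, Kit stood at 11.4 and 11.1 TPM, Pdgfrb at 2.76 and 2.56 TPM, Flt3 at 1.68 and 1.32 TPM, and Pdgfra at 1.58 and 1.13 TPM. Genes known from macrophages of other tissues summed to 11.3 and 10.4 TPM over 6 genes, among them Tmem119 at 3.93 and 3.71 TPM and P2ry12 at 2.32 and 2.16 TPM.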
